A study of Mus musculus with 288 samples.

Results

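Bhlhe40 and Bhlhe41 encode the DEC repressors (DEC1 and DEC2), a pair of closely related basic helix-loop-helix proteins with an Orange domain. They were taken as 2 of the 35904 genes quantified in 6 tissues of mice, by their gene symbols alone. Both proteins bind E-box elements, the motif used by the CLOCK and BMAL1 activators of the circadian clock, and repress transcription there. Their own genes are driven through E-boxes by CLOCK and BMAL1 and are also induced by the hypoxia-inducible factors (HIFs), which bind a short hypoxia response element in oxygen-regulated genes. The pair therefore stands where the clock and the oxygen-sensing pathway meet, and the question put to the data was how its 24-hour profile in each tissue compared after intermittent hypoxia (IH).

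The animals were wild-type male C57BL/6J mice, 8 weeks old, held in normoxia (room air) or exposed to IH, in which chamber oxygen cycled between 21% and 8% in the rest phase for 7 days. Both groups then passed 2 days in normoxia and constant darkness, and tissues were collected on the second day, so no animal was hypoxic at harvest. Lung, liver, kidney, muscle, heart and cerebellum were each sampled at 8 circadian times, every 3 h from 1:30 to 22:30, with 3 replicates per treatment and time, which made 24 libraries of poly(A) RNA per tissue and treatment. Values are TPM, the share of a library's transcripts that a gene takes, corrected for transcript length. In these bulk samples, fewer cells of a type and less RNA per cell cannot be told apart.

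The marker genes of each tissue were abundant in its own libraries, with 2 exceptions. In the liver IH library of replicate 2 at 13:30 the hepatocyte markers summed to 988 TPM, against 17916 to 83273 in the other 47 liver libraries, and cardiomyocyte markers summed to 3694 TPM against 2.84 to 30.7. In the cerebellum IH library of replicate 3 at 1:30 the cerebellar neuron markers summed to 1837 TPM against 2718 to 10349, and cardiomyocyte markers to 4154 TPM against 19.0 to 2462. Most tests of the pair that include these libraries are also given without them. Levels, list counts and shares of all genes include them unless stated. Markers of other cell types reached high sums in further libraries, which were kept. Skeletal muscle fibre markers summed to as much as 4287 TPM in normoxic cerebellum (median 82.3). In normoxic heart, lung epithelium markers reached 1988 TPM and T cell markers 825 TPM (medians 0.986 and 2.94). The number of genes detected also moved with treatment, from 25124 ± 1719 to 21447 ± 688 in heart and from 22694 ± 737 to 25455 ± 1529 in lung (mean ± SD, n = 24 libraries).

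Both genes lie on mouse chromosome 6, and both are protein coding (GRCm38/mm10, GENCODE annotation). Bhlhe40 (ENSMUSG00000030103) runs on the plus strand from 108660629 to 108666925, and its start overlaps the antisense transcript 0610040F04Rik (108577039 to 108660934, minus strand). Bhlhe41 (ENSMUSG00000030256) runs on the minus strand from 145858243 to 145865558 and holds the unclassified plus-strand transcript Gm43909 (145863297 to 145865172) within it. The library kit kept strand, but the strand setting of the quantification is not given in the sources used here. Without it, reads of a gene and its antisense neighbour cannot be told apart.

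The promoter of Bhlhe41, from RefSeq (GRCm38.p6), is shown because an E-box is the element through which the clock reaches the pair. It spans chr6:145865421-145865670 on the minus strand, the 250 bases before the RefSeq start, and the annotated GENCODE start lies inside it. Capitals mark the E-box CACGTG, and 1 of the 2 genes, Bhlhe41 and Bhlhe40, was matched in the promoter table.
Bhlhe41: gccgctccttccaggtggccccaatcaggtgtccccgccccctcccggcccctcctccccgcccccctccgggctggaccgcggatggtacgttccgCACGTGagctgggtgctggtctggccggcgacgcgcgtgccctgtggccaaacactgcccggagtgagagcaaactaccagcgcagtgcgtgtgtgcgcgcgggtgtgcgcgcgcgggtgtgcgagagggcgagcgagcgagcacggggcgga
Searched on both strands, CACGTG occurred 1 time, at -153 to -148 from the start, and 6.02% of the 32851 promoter windows of this length held it. ACGTG, a form of the core that HIFs recognise, occurred 2 times, once on each strand, and both matches lie inside the E-box. It was held by 16.6% of windows. Other forms of the HIF core, such as GCGTG, were not searched for. The D-box letters TTATGTAA and TTACGTAA, read by DBP, TEF and NFIL3, occurred 0 times (0.819% and 0.113% of windows), as did AGGTCA, the half-site of REV-ERB and ROR receptors (14.0% of windows).

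Bhlhe40 was the more abundant of the pair in every tissue, by a margin that differed widely between tissues. In normoxia muscle held the most Bhlhe40, with 23.5 TPM in the lowest library, a median of 39.9 and 61.1 in the highest. Liver ranged most widely, from 10.1 to 82.8 TPM around a median of 31.8. Heart held the least, 4.74 to 17.5 TPM with a median of 8.91, and every heart library lay below the median of each other tissue. Means were 41.6 ± 11.3 TPM in muscle, 36.3 ± 20.6 in liver, 28.9 ± 8.94 in kidney, 25.6 ± 6.34 in lung, 23.6 ± 7.79 in cerebellum and 9.34 ± 3.22 in heart (SD, n = 24).

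**Figure D1:**
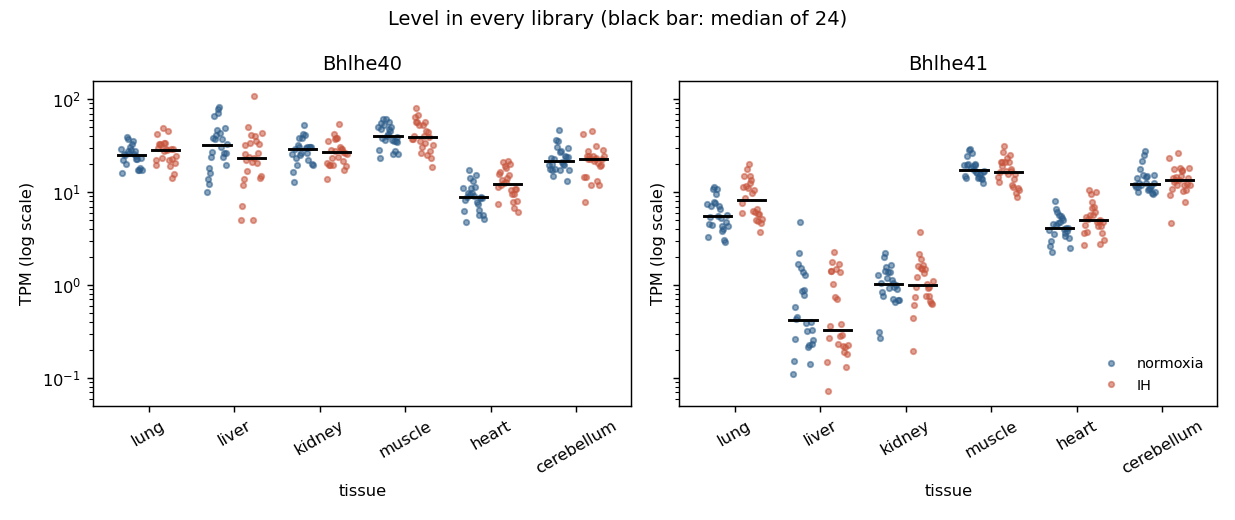
Level of Bhlhe40 and Bhlhe41 in TPM (log axis) in each library, by tissue and treatment; each point is a library and the bars give the median. Bhlhe41 is under 5 TPM in every normoxia library of liver and kidney, whereas Bhlhe40 there lies between 10.1 and 82.8 TPM.

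Bhlhe41 followed another order. In normoxia it was highest in muscle, from 12.6 to 29.0 TPM with a median of 17.1, and next in cerebellum, from 9.55 to 27.5 TPM with a median of 12.2. The muscle and cerebellum ranges overlapped. In kidney it ranged from 0.270 to 2.21 TPM and in liver from 0.111 to 4.71 TPM, with medians of 1.02 and 0.417; the highest kidney library lay below the lowest lung library. Means were 18.4 ± 4.58 TPM in muscle, 13.9 ± 4.74 in cerebellum, 6.16 ± 2.53 in lung, 4.37 ± 1.38 in heart, 1.08 ± 0.474 in kidney and 0.827 ± 1.00 in liver (SD, n = 24).

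Neighbours in these orders were compared by limma over all libraries, on log2(TPM + 0.5) with and without scaling of libraries to each other, because the answer turned on that choice. Most genes passed such contrasts: on the scaled values 83.8% between muscle and liver, 78.7% between liver and kidney, 84.7% between kidney and lung, 89.4% between lung and cerebellum, 86.8% between cerebellum and heart, 87.3% between muscle and cerebellum, 81.5% between lung and heart and 84.9% between heart and kidney. For Bhlhe40, muscle minus liver was -0.25 (adjusted p = 0.0980) scaled and 0.36 (adjusted p = 0.0334) as deposited. Liver minus kidney, 0.97 scaled, was 0.17 (adjusted p = 0.311) as deposited, and kidney minus lung, 0.82 scaled, was 0.15 (adjusted p = 0.384). Lung and cerebellum were not separated on either scale, at -0.19 (adjusted p = 0.211) and 0.13 (adjusted p = 0.434). Heart was below cerebellum, its neighbour by TPM, on both, by 0.45 and 1.30 on the log2 scale. For Bhlhe41, muscle exceeded cerebellum by 0.95 scaled and 0.41 as deposited, cerebellum exceeded lung by 1.41 and 1.15, and heart exceeded kidney by 2.10 and 1.63, each past an adjusted p of 0.05. Lung minus heart changed sign, from -0.68 scaled to 0.41 as deposited, and kidney minus liver moved from -0.02 (adjusted p = 0.914) to 0.44 (adjusted p = 0.00612). Heart below cerebellum for Bhlhe40, and muscle above cerebellum and cerebellum above lung for Bhlhe41, therefore held on both scales. Bhlhe40 in heart was not tested against lung, which lay below cerebellum on the scaled values.

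The ratio of the pair within a library does not depend on scaling between libraries. In normoxia the median ratio of Bhlhe40 to Bhlhe41 was 1.73 in cerebellum, 2.11 in heart, 2.30 in muscle, 4.38 in lung, 27.8 in kidney and 77.0 in liver. After IH the medians were 1.58, 2.39, 2.51, 3.65, 25.8 and 67.9 in the same order of tissues. Liver also had the widest spread, from 13.8 to 185.1 over its 24 normoxia libraries, and its geometric mean ratio at each time ran from 15.6 at 7:30, when Bhlhe41 was highest, to 133.3 at 19:30. After IH the liver ratio lay between 12.5 and 188.5, apart from 2.94 in the library that carried cardiomyocyte transcripts.

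In normoxic liver Bhlhe40 was highest at 13:30 and lowest at 1:30. The 3 libraries at 13:30 held 78.1, 71.1 and 82.8 TPM and those at 1:30 held 10.1, 13.8 and 12.2 TPM, without overlap, a 6.41-fold difference of means. A 24-hour cosine fitted by least squares to the TPM as deposited gave an amplitude of 22.3 TPM, 61.6% of the 24-hour mean, and a peak time (acrophase) at 13.1 h, with an F-test adjusted p of 0.00205 over all genes; 8.56% of genes passed in normoxic liver. Kidney had the same shape with a smaller swing, from a mean of 18.3 TPM at 1:30 to 45.1 at 13:30, with an amplitude of 8.89 TPM (30.8%), an acrophase at 12.8 h and an adjusted p of 0.0171, where 8.49% of genes passed. Lung Bhlhe40 was highest at 7:30, at a mean of 34.5 TPM, and lowest at 19:30, at 19.3 TPM. Its amplitude was 6.55 TPM (25.6%), the acrophase 10.0 h and the adjusted p 0.0150, with 2.99% of genes passing.

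**Figure D2:**
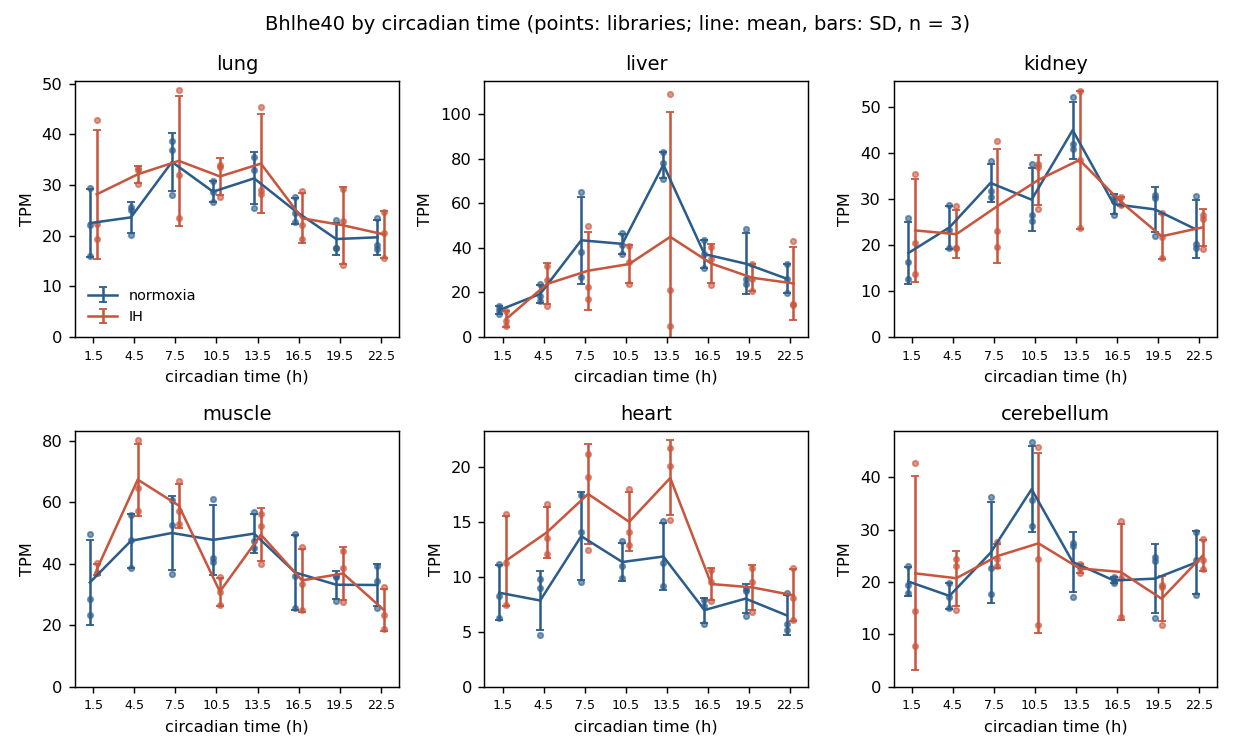
Bhlhe40 in TPM against circadian time (h) in 6 panels, 1 per tissue; points are libraries, lines join the means of the 3 replicates with bars of 1 SD, the axis starts at 0, and colours separate normoxia from IH. The liver and kidney panels rise to 13:30 in normoxia, to means of 77.3 and 45.1 TPM, and the heart panel has a higher IH mean at all 8 times.

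The other tissues did not pass for Bhlhe40 in normoxia, although their fitted peaks fell in the same part of the day. Amplitudes were 9.86 TPM (23.7%) in muscle, 2.87 TPM (30.7%) in heart and 5.06 TPM (21.4%) in cerebellum, with acrophases of 9.42, 9.64 and 10.9 h and adjusted p of 0.190, 0.423 and 0.273. The background was low there too: 0.87% of genes passed in muscle, 0.285% in heart and 0.0% in cerebellum, where 4144 of 21372 reached 0.05 before adjustment. Bhlhe40 was thus called rhythmic in 3 of 6 tissues in normoxia. The count was 0 or 1 when any 1 replicate number was left out, so that 16 libraries remained per group. Calls over all genes moved too, without replicates 1, 2 and 3 in turn. In normoxic lung they went from 601 of 20106 to 48, 422 and 123. In liver they went from 1240 of 14482 to 472, 297 and 1321, and in kidney from 1248 of 14706 to 1366, 416 and 34.

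In liver the swing of Bhlhe41 relative to its mean was wider than that of Bhlhe40. Its mean was highest at 7:30 in lung, liver, kidney, muscle and heart, in both treatments, and at 10:30 in cerebellum. In normoxic liver it ran from a mean of 0.175 TPM at 1:30 to 2.87 TPM at 7:30, a 16.4-fold difference. The amplitude was 0.926 TPM, 112.0% of the 24-hour mean, with an acrophase at 8.95 h and an adjusted p of 0.0305. A fitted amplitude above the mean takes the curve below 0, so the cosine is a rough description of this sharp profile, and the median library lay below 1 TPM.

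In normoxia Bhlhe41 also passed in lung, with an amplitude of 2.83 TPM (46.0%), an acrophase at 8.77 h and an adjusted p of 0.00315. It passed in kidney at 0.455 TPM (41.9%), 10.2 h and 0.0252, and in muscle at 4.83 TPM (26.2%), 7.86 h and 0.0216. Heart, at 1.39 TPM (31.7%) and 10.7 h, had an adjusted p of 0.117, and cerebellum, at 4.08 TPM (29.3%) and 9.48 h, one of 0.166. That gave 4 of 6 tissues, against the same background shares, and 0 to 2 tissues when a replicate number was left out. In normoxic muscle the calls over all genes went from 132 of 15181 to 27, 30 and 31 without replicates 1, 2 and 3.

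**Figure D3:**
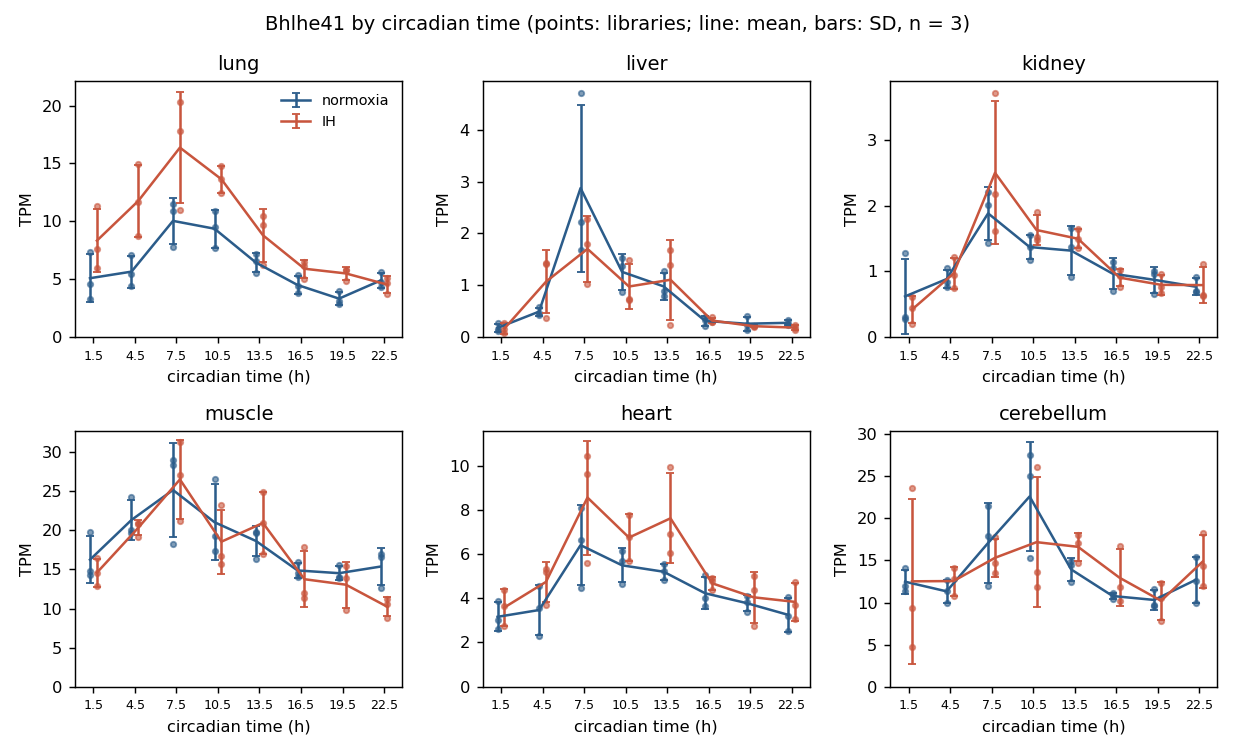
Bhlhe41 in TPM against circadian time (h) in 6 panels, 1 per tissue; points are libraries, lines join the means of the 3 replicates with bars of 1 SD, the axis starts at 0, and colours separate normoxia from IH. The lung panel has its IH mean at 16.4 TPM at 7:30 against 10.0 TPM in normoxia, and the liver panel has medians of 0.417 and 0.326 TPM.

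After IH the calls were distributed differently, with 1 of 6 tissues for Bhlhe40 and 4 of 6 for Bhlhe41. Heart Bhlhe40 passed, with an amplitude of 4.70 TPM (36.3%), an acrophase at 9.39 h and an adjusted p of 0.0329, where 1.21% of genes passed. Lung, liver and kidney Bhlhe40 did not, at adjusted p of 0.143, 0.566 and 0.347 (4.46%, 2.86% and 1.19% of genes passed), nor did muscle, at 0.181 (2.28%), or cerebellum, at 1 (0.00468%). Without the liver library that carried cardiomyocyte transcripts, liver Bhlhe40 had an adjusted p of 0.266. Bhlhe41 passed in lung with an amplitude of 5.41 TPM (57.9%) and an adjusted p of 0.000228, in liver with 0.690 TPM (96.5%) and 0.0127, in muscle with 6.30 TPM (36.5%) and 0.00512, and in heart with 2.24 TPM (40.9%) and 0.0219. Liver Bhlhe41 had an adjusted p of 0.00889 without the same library, and kidney Bhlhe41 fell just outside at 0.0513. Without the cerebellum library that carried cardiomyocyte transcripts, both genes had an adjusted p of 0.969 in cerebellum. Leaving out a replicate number took the IH counts to 0 for Bhlhe40 and to between 0 and 2 for Bhlhe41. Calls over all genes fell too, in IH lung from 897 of 20106 to 94, 210 and 236 without replicates 1, 2 and 3. In IH heart they fell from 191 of 15770 to 7, 58 and 39, and they were also fewer in IH liver and muscle. A call in one treatment and not in the other is no test of a difference, which is given separately.

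The members were also set beside the clock genes, whose order through the day is well known. In normoxic liver the acrophases ran from Nr1d1 (REV-ERB alpha, a repressor of Arntl) at 6.68 h through Bhlhe41 at 8.95 h, Dbp (an activator at D-boxes) at 9.41 h and Bhlhe40 at 13.1 h to Per2 (a repressor of CLOCK and BMAL1) at 14.6 h and Arntl (BMAL1) at 22.4 h. In normoxic lung the order was Nr1d1 at 6.47 h, Dbp at 8.61 h, Bhlhe41 at 8.77 h, Bhlhe40 at 10.0 h, Per2 at 12.6 h and Arntl at 22.1 h. In these 2 tissues Bhlhe41 therefore lay close to Dbp, and Bhlhe40 lay between Dbp and Per2. Bhlhe40 also lay between them in normoxic kidney and cerebellum. In cerebellum, however, none of these rhythms passed the F-test (adjusted p = 0.273 for Bhlhe40, 0.148 for Dbp and 0.186 for Per2). In normoxic muscle and heart, where its rhythm did not pass, Bhlhe40 came before Dbp (9.42 against 9.94 h and 9.64 against 10.2 h). The swing of Bhlhe40 relative to its mean was small among the 17 clock genes: 12 of them exceeded it in liver, 15 in lung, 13 in kidney, 14 in muscle, 14 in heart and 11 in cerebellum. For Bhlhe41 the same counts were 4, 13, 10, 14, 13 and 8.

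**Figure D4:**
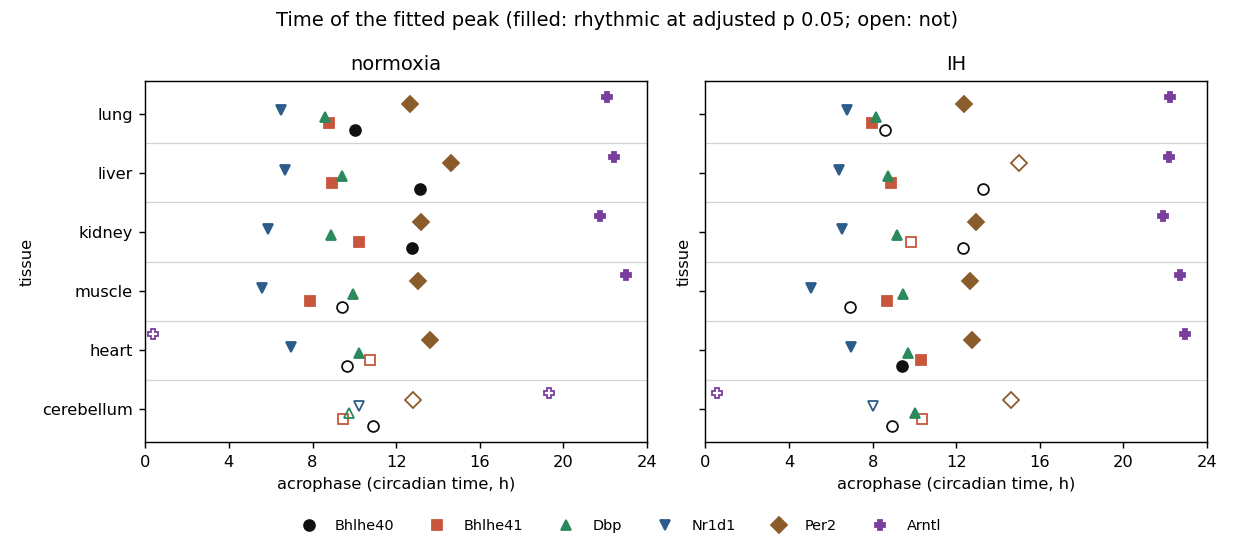
Acrophase of the 24-hour cosine in circadian hours for Bhlhe40, Bhlhe41 and 4 clock genes, by tissue, in normoxia and after IH; filled symbols have an adjusted p of 0.05 or less. In liver Bhlhe40 stands near 13 h in both treatments, with an open symbol after IH, and Bhlhe41 near 9 h. The acrophase of Bhlhe40 minus that of Bhlhe41 was 1.56 h in normoxic muscle and -1.74 h in IH muscle. In heart it was -1.10 h in normoxia and -0.94 h after IH.

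Within liver the fitted peaks of the pair lay several hours apart. The acrophase of Bhlhe40 came 4.17 h after that of Bhlhe41 in normoxia, with a 95% confidence interval of 2.07 to 6.27 h. After IH the gap was 4.41 h (0.61 to 8.21 h), and 4.82 h (1.92 to 7.73 h) without the library that carried cardiomyocyte transcripts. In IH liver Bhlhe40 did not pass the F-test for rhythm (adjusted p = 0.566, or 0.266 without that library). Its peak time there is therefore loosely set, and so is the gap. Kidney showed 2.57 h in normoxia (0.593 to 4.54 h) and 2.50 h after IH (-0.17 to 5.16 h). Bhlhe40 did not pass the F-test in IH kidney either (adjusted p = 0.347). In lung the normoxia gap was 1.26 h (-0.02 to 2.53 h), and the intervals of the remaining tissues and groups included 0. The intervals allow for the shared spread of the pair, which was measured in the same libraries.

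The mean level over 24 hours was then compared between treatments, by limma on the scaled log2 values within each tissue. With treatment as the only term, 1 of the 11 combinations of gene and tissue tested passed: heart Bhlhe40 was higher after IH. With time point as a further term the differences were unchanged, and Bhlhe41 also passed in lung, muscle and heart (adjusted p = 0.0140, 0.0112 and 0.0452). Heart Bhlhe40 then had an adjusted p of 0.000415, and no other combination passed. That fit called 11020 of 15426 genes in lung, 1537 of 12824 in muscle and 5861 of 12779 in heart. Normoxic heart libraries held 4.74 to 17.5 TPM, with a median of 8.91, and IH heart libraries held 6.08 to 21.7 TPM, with a median of 12.2. The ranges overlapped widely, and the IH mean was higher at 8 of 8 time points. At 13:30, for example, normoxia gave 9.16, 11.2 and 15.1 TPM and IH gave 21.7, 15.1 and 20.1 TPM, so that the highest normoxia and the lowest IH library stood level. The log2 difference was 0.32 (SE 0.126, adjusted p = 0.0323), below 1.5-fold. In heart 45.2% of all genes passed, 28.0% of all genes tested were called higher after IH and 2.95% also differed by 1.5-fold, so a call there was common. The difference was 0.26 (adjusted p = 0.212) without replicate 1 and 0.35 (adjusted p = 0.0814) without replicate 2. With the number of detected genes as a further term it was 0.23 (SE 0.229, adjusted p = 0.583). That number itself moved with treatment in heart, so this fit cannot hold it well apart from treatment. It called 257 of 12779 heart genes. The summed macrophage markers of heart also moved, from 74.5 to 195.7 TPM in normoxia to 105.6 to 218.8 TPM after IH, with 4 of 4 marker means higher. None of these markers was at 0 throughout, and their part in the result was not tested.

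Heart Bhlhe41 had a higher IH mean at 8 of 8 time points as well, yet did not pass with treatment as the only term. It ranged from 2.29 to 8.10 TPM in normoxia (median 4.09) and from 2.73 to 10.4 TPM after IH (median 4.96). The log2 difference was 0.16 (SE 0.120, adjusted p = 0.297).

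In lung the sign of the Bhlhe40 difference depended on the scale. Bhlhe40 ranged from 15.9 to 38.7 TPM in normoxia and from 14.1 to 48.8 TPM after IH, with medians of 25.3 and 28.5, and the IH mean was higher at 7 of 8 time points. On the scaled values its log2 difference was -0.17 (SE 0.116, 95% confidence interval -0.41 to 0.06, adjusted p = 0.174), while on the TPM as deposited it was 0.12. The median log2 difference over all genes moved likewise with scaling and was -0.08 scaled and 0.21 as deposited in lung. The corresponding medians were 0.04 and 0.15 in heart and -0.0070 and -0.12 in liver. Relative to them Bhlhe40 was slightly below the typical lung gene on both scales, and 70.4% of lung genes passed on the scaled values (65.7% as deposited). By replicate number, lung Bhlhe40 went from 22.9 to 35.9 TPM in replicate 3, from 27.8 to 25.1 in replicate 1 and from 26.0 to 23.9 in replicate 2. Without replicate 3 the scaled difference was -0.42 (adjusted p = 0.00544).

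Lung Bhlhe41 had a higher IH mean at 7 of 8 time points. It ranged from 2.88 to 11.5 TPM in normoxia and from 3.73 to 20.3 TPM after IH, with medians of 5.51 and 8.16. At 4:30 the normoxia libraries held 5.45, 7.11 and 4.39 TPM and the IH libraries 14.9, 8.70 and 11.7 TPM, without overlap, while at 22:30 they held 4.72, 5.64 and 4.30 TPM against 3.73, 4.70 and 5.14 TPM and overlapped. Over the day the scaled log2 difference was 0.24 (SE 0.167, adjusted p = 0.195), and on the TPM as deposited it was 0.52 (adjusted p = 0.00507). The alveolar macrophage markers of lung moved in the same libraries, from 54.0 to 831.3 TPM in sum (median 347.9) to 336.7 to 3387 TPM (median 693.1), with 4 of 4 means higher. Summed lung epithelial markers lay between 133106 and 261827 TPM in normoxia and between 33318 and 201034 TPM after IH, with 0 of 4 means higher. Their part in the lung values was not tested.

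Liver, kidney, muscle and cerebellum gave no call for the mean level with treatment as the only term. Among all genes 24.2% passed in liver, 19.8% in kidney and 10.4% in muscle, and in cerebellum 9.76% were called higher and 5.24% lower. Liver Bhlhe40 had a lower IH mean at 7 of 8 time points, with a median of 23.5 TPM after IH against 31.8 TPM, but the IH libraries spread from 4.96 to 108.8 TPM. Both extremes came from 13:30, where the IH libraries held 20.9, 4.96 and 108.8 TPM. The difference was -0.35 (SE 0.237, adjusted p = 0.278), and -0.30 (adjusted p = 0.350) without the library that carried cardiomyocyte transcripts. Kidney Bhlhe40 differed by -0.02 (adjusted p = 0.932), muscle by -0.10 (adjusted p = 0.683) and cerebellum by -0.09 (adjusted p = 0.505). For Bhlhe41 the values were 0.08 in kidney (adjusted p = 0.697), -0.22 in muscle (SE 0.109, adjusted p = 0.203) and 0.0039 in cerebellum (adjusted p = 0.981). Without the cerebellum library that carried cardiomyocyte transcripts, the cerebellum values were -0.07 (adjusted p = 0.569) for Bhlhe40 and 0.03 (adjusted p = 0.835) for Bhlhe41. In that fit 2122 of 14861 cerebellum genes were called higher and 1507 lower. Liver Bhlhe41, with a mean under 1 TPM, was below the minimum for this test.

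**Figure D5:**
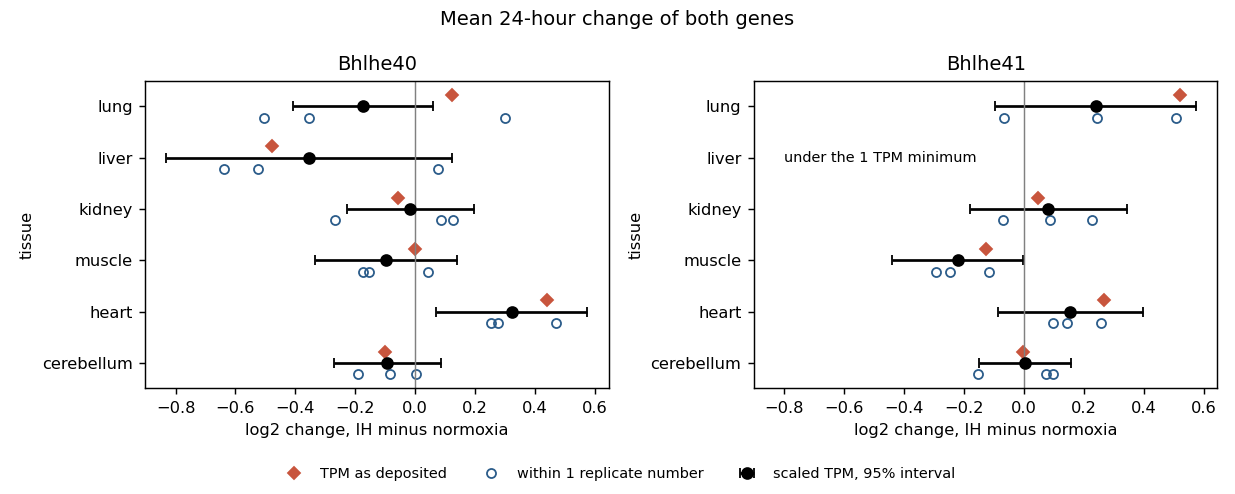
Mean 24-hour log2 difference, IH minus normoxia, on scaled values for Bhlhe40 and Bhlhe41 by tissue; black points are scaled values with 95% confidence intervals, diamonds the TPM as deposited and open circles the values within each replicate number. With treatment as the only term, heart Bhlhe40, at 0.32, is the 1 combination past the threshold. Liver Bhlhe41 has no value because it lay under the minimum of 1 TPM.

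No change of the 24-hour rhythm passed for either gene. An F-test of the interaction between treatment and the cosine terms called 0 of 12 combinations, where 0.0% of genes passed in every tissue but muscle (0.00659%). At an unadjusted p of 0.05, 1 of the 12 passed, lung Bhlhe41 (adjusted p = 0.886). Its amplitude went from 2.83 to 5.41 TPM, a difference of 2.58 TPM with a 95% confidence interval of 0.915 to 4.25 TPM, while 795 of 20106 lung genes reached that unadjusted level. On the scaled log2 values the F-test gave lung Bhlhe41 an unadjusted p of 0.156. On the TPM as deposited it was 0.135, 0.00202 and 0.0983 without replicates 1, 2 and 3. In liver the amplitude of Bhlhe40 was 22.3 TPM in normoxia and 12.4 TPM after IH, at acrophases of 13.1 and 13.3 h. Without the library that carried cardiomyocyte transcripts the IH amplitude was 15.8 TPM. By the F-test the change did not pass with or without that library (adjusted p = 0.993 and 0.999).

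A test that let each time point differ (limma, 7 interaction terms) likewise called 0 of 11 combinations, where 0.0% of genes passed in every tissue but heart (0.00783%). At an unadjusted p of 0.05, 3 of the 11 passed on the scaled values, and none did on the TPM as deposited. Muscle Bhlhe40 came first (adjusted p = 0.727), and 842 muscle genes reached that level. Its muscle libraries at 4:30 held 47.8, 56.0 and 38.7 TPM in normoxia and 64.9, 80.3 and 57.2 TPM after IH. At 10:30 they held 61.1, 40.5 and 41.8 TPM in normoxia and 35.6, 26.5 and 30.8 TPM after IH, so at each of these times the groups did not overlap and the order was turned. Heart Bhlhe41 and muscle Bhlhe41 were the others, and 236 heart genes reached the unadjusted level. On the TPM as deposited the same test gave an unadjusted p of 0.0692 for muscle Bhlhe40. It gave 0.323 for muscle Bhlhe41 and 0.898 for heart Bhlhe41.

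Whether the IH difference of each gene itself differed between tissues was tested with limma over the libraries of all tissues. For Bhlhe40 the test across 6 tissues gave an adjusted p of 0.0301, and 82.3% of 15551 genes passed it. Of 15 tissue pairs, 2 passed: lung minus heart was -0.57 (SE 0.204, adjusted p = 0.0111), where 57.7% of genes passed, and liver minus heart was -0.68 (adjusted p = 0.00479), where 34.1% passed. On the TPM as deposited, lung minus heart was -0.32 (adjusted p = 0.262), while liver minus heart was -0.92 (34.3% of genes) and lung minus liver 0.60 (50.4%). Without replicate 1 the adjusted p across tissues was 0.537 and without replicate 2 it was 0.216, with 0 pairs in each. Without both libraries that carried cardiomyocyte transcripts it was 0.0425. For Bhlhe41 the test gave an adjusted p of 0.458 scaled and 0.0395 on the TPM as deposited, which 79.9% of genes passed. On the TPM as deposited lung stood above liver by 0.59, above muscle by 0.65 (29.8% of genes) and above cerebellum by 0.52 (46.7%). Liver Bhlhe41 averaged under 1 TPM, the minimum of the test within tissue. It entered here because the minimum was applied over all libraries, and log2 differences of so low a gene are understated.

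The pathways on either side of the pair are given as counts. In lung 6 of 17 clock genes were higher after IH and 0 lower (median 0.14, all genes -0.08), or 9 and 0 on the TPM as deposited. That is 35.3% of the list, against 70.4% of all lung genes. The 3 with the widest differences were Ciart (CHRONO, a repressor of CLOCK and BMAL1), at 1.07 from 9.13 to 24.5 TPM, Per3 at 0.88 and Per2 at 0.74. Lung Bhlhe41, at 0.24, lay above the list's median and Bhlhe40, at -0.17, below it. Muscle and heart each had 1 higher clock gene of 17, against 10.4% and 45.2% of all genes called. Liver, kidney and cerebellum had 0 in either direction by limma, with 1, 1 and 2 at an unadjusted p of 0.05. Of all genes 24.2% were called in liver and 19.8% in kidney, and in cerebellum 9.76% were called higher and 5.24% lower.

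The HIF target list did not move one way. In lung 5 of 26 measured genes were higher and 16 lower after IH (median -0.27, all genes -0.08), but 9 and 8 on the TPM as deposited. On the scaled values that is 80.8% of the list, against 70.4% of all lung genes. Slc2a1 (the glucose transporter GLUT1) at -0.69, and the glycolytic enzymes Pgk1 at -0.66 and Eno1 at -0.65, were lower on both scales. In heart, where Bhlhe40 was higher, 7 of 26 were higher and 2 lower (median 0.13), or 17 and 1 as deposited, which on the scaled values is 34.6% of the list against 45.2% of all heart genes. There Vegfa (the vascular endothelial growth factor) went from 105.5 to 65.3 TPM, at -0.73. Liver had 3 higher and 5 lower of 24 (24.2% of all genes called), with Eno1 at -0.59, and kidney 3 and 4 of 25 (19.8%). Muscle had 1 and 0 of 26 (10.4%), and cerebellum 2 and 1 of 26, where 9.76% of all genes were called higher and 5.24% lower.

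Among the HIF subunits, 2 of 4 were higher and 2 lower in lung, with Hif3a at 1.16 (70.4% of all genes called). In heart and in kidney 1 of 3 was higher (45.2% and 19.8% of all genes called). Liver, muscle and cerebellum had 0 past the threshold by limma, with 0, 0 and 1 at an unadjusted p of 0.05. There 24.2% of all genes were called in liver and 10.4% in muscle, and in cerebellum 9.76% were called higher and 5.24% lower. The other measured bHLH-Orange genes, relatives of the pair in the Hes and Hey families, had 1 higher (Hes7, at 1.19, from 1.32 to 4.82 TPM) and 3 lower of 6 in lung, 66.7% of them against 70.4% of all genes. Of these relatives 2 of 5 were higher in heart (45.2% of all genes called) and 2 of 5 lower in muscle (10.4%). In cerebellum 2 of 7 were higher and 1 lower, where 9.76% of all genes were called higher and 5.24% lower. By limma 0 of 2 passed in liver and in kidney (24.2% and 19.8% of all genes called), with 0 and 1 at an unadjusted p of 0.05.

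Across the 48 normoxia group means (6 tissues at 8 times, centred within each tissue), the profiles most like Bhlhe40 among 9877 genes were Coq10b (Pearson r = 0.829), Nampt (0.804), Alas1 (0.801), Rrs1 (0.801) and Usp2 (0.800). Nampt is the rate-limiting enzyme of NAD salvage and Alas1 that of haem synthesis. Those most like Bhlhe41 were Dbp (0.846), Gpcpd1 (0.821), Fam76a (0.815), Ciart (0.813) and Slc5a6 (0.810). The likeness of the members to each other was 0.705. These correlations describe points that share libraries and tissues, and centring leaves the time of day as their main common feature.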

How the data were processed

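TPM values were deposited by the authors, who per the study's methods quantified poly(A) reads with kallisto against Ensembl release 102; the tables hold 1 value per gene symbol, how transcripts were combined is not given in the sources used here, and the labels name mm10. TPM sums per library were 989211 to 999188, and read depth is unknown, so no counting error is given. Counts tested by the authors were not used here.

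Groups came from the labels. The labels do not say which organs share an animal, so each library was taken as independent. Within tissue, TPM were scaled by the median of ratios, log2(TPM + 0.5) was tested by limma 3.58.1 in R 4.3.3 with treatment as the term, where the gene averaged 1 TPM or more. Log2 differences understate low genes. Rhythms were 24-hour cosines on TPM as deposited, where some library reached 1 TPM (numpy 2.4.6, scipy 1.17.1, pandas 2.3.3). P-values were adjusted by Benjamini-Hochberg over all genes within tissue, with a threshold of 0.05, and 1.5-fold is given beside it. Level and between-tissue tests used all libraries together. Scripts were tested on simulated data.

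The members and lists were chosen with earlier results of these data known. Named list genes were up to 3 per list and tissue with the widest log2 difference past 0.05 and 1.5-fold, and the 5 genes most correlated with each member. Alternatives covered pseudocount, filter, scaling, time, detected genes, replicate number, other rhythm tests and left-out replicates or libraries; leaving out the liver and cerebellum libraries with cardiomyocyte transcripts was added after seeing the data for rhythm, time and between-tissue tests. Figures used matplotlib 3.10.9.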

Additional observations from a re-analysis of the deposited data

Results flagged for a closer look

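Bhlhe40 met the criterion of an IH difference that itself differs between tissues, by limma over the libraries of all tissues. The test across 6 tissues gave an adjusted p of 0.0301, and 82.3% of genes passed it; it was 0.537 without replicate 1 and 0.216 without replicate 2. Lung minus heart was -0.57 and liver minus heart -0.68 on the log2 scale, with heart higher after IH and lung and liver at -0.17 and -0.35 in their own tissue fits. In heart the IH mean of Bhlhe40 was higher at 8 of 8 time points, and in liver at 1 of 8. As deposited, without scaling, the adjusted p was 0.00717, with lung minus liver at 0.60 and liver minus heart at -0.92, while lung minus heart, at -0.32 (adjusted p = 0.262), no longer passed. No sample of either gene was tested for standing apart, because groups held 3 replicates.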

How the results depend on the processing

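No change of rhythm (12 tests) and no treatment-by-time difference (11 tests) passed under any alternative. Of 166 recomputed mean differences, 133 kept their direction and side of the threshold. Where not, the cause was not tested. For Bhlhe40 in lung the value was 0.12 as deposited, 0.29 with the number of detected genes as a term, 0.15 for the cosine mean, -0.35 within replicate 1 alone and 0.30 within replicate 3 alone, and -0.42 to -0.025 leaving out a replicate. Bhlhe41 in lung was 0.52 as deposited, 0.24 with a time term (adjusted p = 0.0140) and -0.065 within replicate 2 alone. For the cosine mean, on TPM as deposited, it was 0.60 (adjusted p = 8.51e-06). Bhlhe40 was 0.075 in liver within replicate 3; in kidney 0.073 with detected genes, 0.13 and 0.088 within replicates 1 and 3, and -0.088 to 0.11 leaving out a replicate; in muscle 0.044 within replicate 3 and 0.037 for the cosine mean. In heart it was 0.23 with detected genes, 0.47, 0.28 and 0.25 within replicates 1, 2 and 3 and 0.26 to 0.37 leaving out a replicate, and in cerebellum 0.0041 within replicate 2. Bhlhe41 was -0.071 in kidney within replicate 1, -0.22 in muscle with a time term (adjusted p = 0.0112), and in heart 0.16 with a time term (adjusted p = 0.0452) and 0.32 for the cosine mean (adjusted p = 0.0159). In cerebellum it was -0.0026 as deposited, -0.011 with detected genes, -0.15 within replicate 3 and -0.039 to 0.078 leaving out a replicate.

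Tissues called rhythmic in normoxia numbered 5 for Bhlhe40 on log2 values and 5 with combined JTK and Lomb-Scargle tests, 0 to 1 leaving out a replicate, and for Bhlhe41 5 on log2 values, 6 with the combined tests, 2 with no filter and 0 to 2 leaving out a replicate. In IH they were 2 (log2), 0 (JTK), 2 (combined), 0 (no filter) and 0 to 0 leaving out a replicate for Bhlhe40, and for Bhlhe41 5 on log2 values, with JTK and with the combined tests, and 0 to 2 leaving out a replicate. The combined test joins p-values that are not independent, which makes its p too small. In normoxic cerebellum it called 1014 of 21372 genes, where the cosine and JTK tests each called 0. Across tissues the adjusted p for Bhlhe40 was 0.00276 to 0.537 leaving out a replicate, with 0 to 2 pairs, and for Bhlhe41 0.0395 with 3 pairs as deposited. Level differences as deposited were 0.36, 0.17, 0.15 and 0.13 for Bhlhe40 (muscle minus liver, liver minus kidney, kidney minus lung, lung minus cerebellum) and 0.41 and 0.44 for Bhlhe41 (lung minus heart, kidney minus liver), the last -0.046 to 0.0060 leaving out a replicate.

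Replicate numbers were not treated as pairs. Deviations of same-numbered normoxia and IH samples had a median correlation of 0.218 in liver and 0.1045 in muscle, and a negative one in the other tissues. Of 24 pairs per tissue, 16 in liver, 12 in muscle and 6 to 8 in the others had a correlation over 0.1. With the replicate block Bhlhe40 was called rhythmic in 4 tissues in normoxia and 2 in IH, and Bhlhe41 in 4 and 5, while no call of the mean or between-tissue tests changed (heart Bhlhe40 adjusted p = 0.0321). Read depth is not known, and 3 libraries per time limit each time point.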
